A study of Homo sapiens with 11 samples.

Results

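The AP-2 family loci were the gene bodies of TFAP2A, TFAP2B, TFAP2C, TFAP2D and TFAP2E with 50 kb on either side, in RefSeq coordinates of GRCh38. All 5 members were found among 20037 protein-coding genes. Over 5 antibodies their windows held 237 of the 505645 peaks called in the solvent control, DMSO, each counted once where windows overlapped, and 203 of the 382790 peaks called with the inhibitor.

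Peaks of 5 antibodies had been called by chromatin immunoprecipitation and sequencing in 92-1, an established line from a uveal melanoma (a melanoma of the eye). Cells received DMSO or FHT-1015 for 4 h; FHT-1015 inhibits the ATPases SMARCA4 and SMARCA2, the motors of the BAF nucleosome remodelling complexes, and the question was how their block changes chromatin binding. The antibodies recognised acetylated lysine 27 of histone H3 (H3K27ac, a mark of active promoters and enhancers), SMARCA4, MITF, TFAP2A (AP-2 in the sample titles) and SOX10. The labels do not say whether the TFAP2A antibody also binds other AP-2 proteins, so TFAP2A peaks below are peaks of that antibody. Each antibody had 1 library per condition and no replicate, and 1 further DMSO library was an input that was not used here, so every difference below lies between 2 libraries and no test was possible.

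AP-2 proteins are transcription factors that bind GC-rich DNA as dimers through a basic region and a helix-span-helix fold. TFAP2A acts in the neural crest and in melanocytes, the pigment cells, where it works beside MITF, the factor that drives pigment genes, and SOX10, which maintains the lineage. TFAP2B is a paralogue with roles in neural crest derivatives, TFAP2C is known from trophoblast, germ cells and breast epithelium, and TFAP2D and TFAP2E are less studied members with restricted expression. As a check of the cell type, all 7 pigment cell genes examined (PMEL, MLANA, TYR, TYRP1, DCT, SOX10 and MITF) carried H3K27ac peaks over the gene body in DMSO, over 4.48% to 100% of its length. The epithelial genes KRT5 and KRT14 carried none, TP63 carried 3 and GATA3 carried 1.

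TFAP2A lies at chr6:10396677-10419659 and is read from the higher coordinate to the lower. RefSeq gave it 2 start sites, 7.27 kb apart, called here the upstream and the internal start. The 250 bases before 3 starts are shown beside the deposited peaks that covered the start base itself. The internal start of TFAP2A lay under H3K27ac, MITF, TFAP2A and SOX10 peaks in both conditions, and under a SMARCA4 peak in FHT-1015. Its upstream start lay under a SMARCA4 peak in DMSO, and the start of TFAP2E under a TFAP2A peak in FHT-1015. Near each of these last starts a peak of that antibody was also called in the other condition, without covering the start base. Coverage of a single base thus does not make these peaks particular to 1 condition. The sequences are those of RefSeq on GRCh38.p14, 5′ to 3′ on the strand of the gene, at chr6:10412392-10412641 and chr6:10419660-10419909 (minus strand) and chr1:35573064-35573313 (plus strand). Capitals mark the letters TATAAA, known as a core promoter element.
TFAP2A internal start: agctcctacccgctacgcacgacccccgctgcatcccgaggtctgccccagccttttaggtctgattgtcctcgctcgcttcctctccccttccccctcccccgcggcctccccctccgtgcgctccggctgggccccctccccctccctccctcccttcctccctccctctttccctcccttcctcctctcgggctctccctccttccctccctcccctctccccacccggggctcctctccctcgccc
TFAP2A upstream start: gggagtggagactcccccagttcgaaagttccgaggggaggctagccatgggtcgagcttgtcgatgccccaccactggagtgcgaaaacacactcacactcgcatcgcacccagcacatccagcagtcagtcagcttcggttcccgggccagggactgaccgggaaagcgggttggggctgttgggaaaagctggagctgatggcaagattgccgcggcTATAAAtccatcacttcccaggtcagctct
TFAP2E start: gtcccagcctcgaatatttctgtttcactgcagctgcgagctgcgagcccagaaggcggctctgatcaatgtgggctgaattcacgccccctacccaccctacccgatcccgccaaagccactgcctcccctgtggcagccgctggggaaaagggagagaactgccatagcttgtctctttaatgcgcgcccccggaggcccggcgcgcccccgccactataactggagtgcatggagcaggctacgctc
The internal stretch of TFAP2A was 71.2% G and C, against 59.6% for the upstream stretch and 62.4% for TFAP2E. TATAAA stood 30 bases before the upstream start of TFAP2A and was in neither of the other stretches shown. In the family windows not shown, it stood 55 bases before the start of TFAP2D. On the other strand it stood 202 bases before the start of TFAP2B. Of 35116 promoter windows of 300 bases in the table, 11.5% held TATAAA on either strand. The AP-2 sequence GCCNNNGGC (in 23.2% of all windows) and its form with 1 more base in the middle (21.4%) were in none of the 5 windows found for the family. TFAP2C was not among those windows. Of the letters known for SOX factors, ACAAAG (16.1% of windows) occurred in none of the 5. The related letters ACAATG (10.8%) occurred once, before the start of TFAP2D. The MITF letters CACGTG (7.26%) occurred in none, and the related CATGTG (11.1%) occurred once, after the start of TFAP2B. These are matches of letters on both strands, not measured sites.

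TFAP2A had the highest density of SMARCA4, MITF, TFAP2A and SOX10 peaks of the 5 genes in both conditions, and TFAP2B and TFAP2D carried few peaks. In DMSO the TFAP2A window of 123 kb held 11 H3K27ac peaks, 44 SMARCA4 peaks, 18 MITF peaks, 33 TFAP2A peaks and 33 SOX10 peaks. With FHT-1015 it held 15, 46, 14, 29 and 22 in the same order. H3K27ac covered 39.4% of the window in DMSO and 37.2% in FHT-1015. Per 100 kb of window, SMARCA4 had 35.8 peaks at TFAP2A in DMSO against a median of 4.67 over all protein-coding genes, a density above that of 99.97% of them. For SOX10 the density was 26.8 per 100 kb against a median of 4.95, above 99.9% of genes, and in FHT-1015 it was 17.9 against 1.59.

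**Figure D1:**
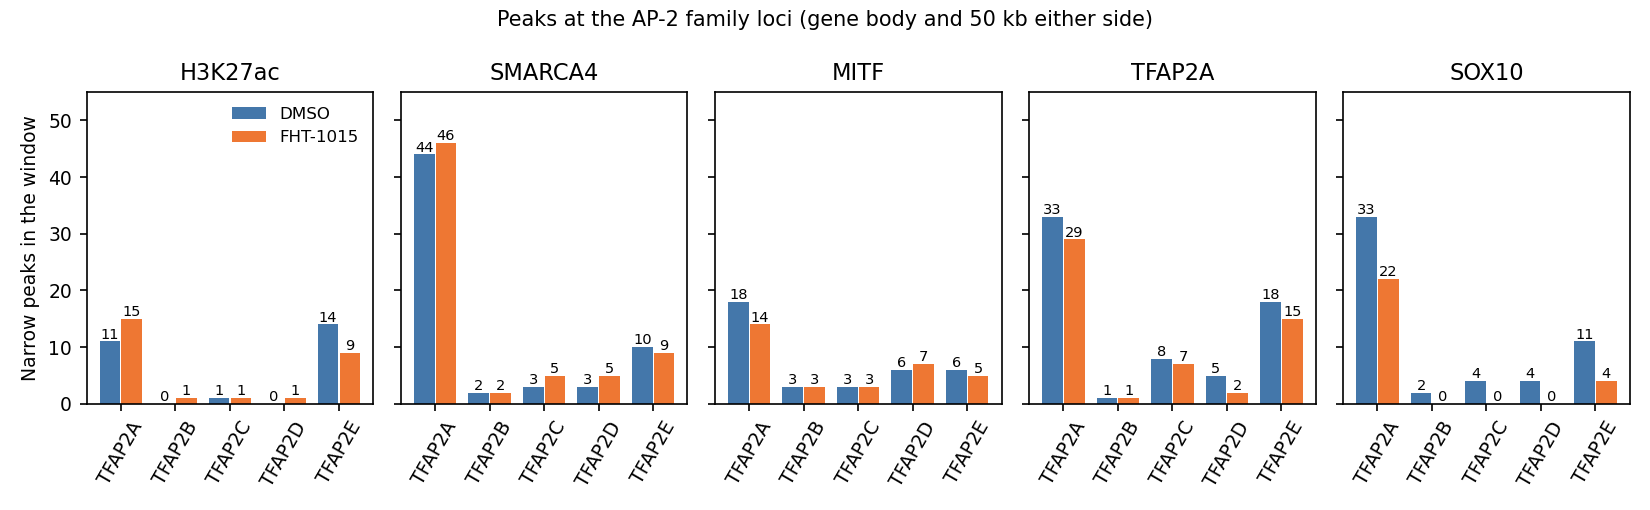
Number of narrow peaks in the window of each AP-2 gene (bars, y axis from 0), for the 5 antibodies, with 1 DMSO and 1 FHT-1015 library each. TFAP2A has the most peaks for each antibody except H3K27ac in DMSO, where TFAP2E has 14 and TFAP2A 11. No SOX10 peak is left at TFAP2B, TFAP2C or TFAP2D in FHT-1015, where 18.9% of all protein-coding genes have none.

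At TFAP2E (chr1:35573314-35595591) the window held 14 H3K27ac, 10 SMARCA4, 6 MITF, 18 TFAP2A and 11 SOX10 peaks in DMSO, and 9, 9, 5, 15 and 4 with FHT-1015. TFAP2C (chr20:56629306-56639283) had 1, 3, 3, 8 and 4 peaks in DMSO and 1, 5, 3, 7 and 0 with FHT-1015. TFAP2D (chr6:50713526-50773033) had 0, 3, 6, 5 and 4, then 1, 5, 7, 2 and 0. TFAP2B (chr6:50818355-50847619) had 0, 2, 3, 1 and 2, then 1, 2, 3, 1 and 0. The genes TFAP2D and TFAP2B are 45.3 kb apart, so 6 DMSO and 3 FHT-1015 peaks lay in both windows. The order of the members in SOX10 peaks in DMSO was TFAP2A, TFAP2E, then TFAP2C and TFAP2D with equal counts, then TFAP2B. With no replicate, the neighbours TFAP2C, TFAP2D and TFAP2B, at 4, 4 and 2 SOX10 peaks, cannot be told apart.

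Retained here means that a DMSO peak overlaps, by 1 bp or more, a peak called for that antibody with FHT-1015; a lost peak has no such partner. Over the 5 loci, 19 of 26 H3K27ac peaks were retained (73.1%, 95% Wilson interval 53.9 to 86.3), where the whole list retained 59.3%. For SMARCA4, 42 of 61 were retained (68.9%, 56.4 to 79.1), against 52.0% of the list. MITF kept 10 of 33 (30.3%, 17.4 to 47.3), against 36.2%. TFAP2A kept 45 of 65 (69.2%, 57.2 to 79.1), against 54.9%. SOX10 kept 21 of 52 (40.4%, 28.2 to 53.9), against 18.3% of its list, which held 103379 peaks in DMSO and 33268 in FHT-1015. Taken by gene windows with at least 10 DMSO peaks, the median gene retained 61.5% (H3K27ac), 60% (SMARCA4), 45.5% (MITF), 68.4% (TFAP2A) and 22.2% (SOX10) of its peaks. The 69.2% of TFAP2A peaks pools 5 loci and is not a share of single genes. Of the members with at least 10 TFAP2A peaks, TFAP2A retained 78.8% and TFAP2E 66.7%, on either side of the median gene. The intervals cover counting error only, and peaks of 1 locus share their surroundings and are not independent.

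The retained SOX10 peaks were unevenly spread over the members, with 18 of 21 at TFAP2A and 3 at TFAP2E. At TFAP2A 18 of 33 SOX10 peaks were retained (54.5%, 38.0 to 70.2), while DMSO peaks of the same deciles of −log10 p in the whole list retained 21.2%. At the other 4 loci 3 of 19 were retained (15.8%, 5.52 to 37.6), where peaks of the same deciles retained 13%; the interval of the TFAP2A share begins just above the end of this one. Among 7345 genes with at least 10 SOX10 peaks in DMSO, the TFAP2A share was above that of 96.6% of genes. Of the 33 SOX10 peaks at TFAP2A, 32 lay on H3K27ac peaks (49.6% of the whole list did), and acetylated SOX10 peaks of the same deciles retained 26.3% in the whole list. Where strong peaks alone were taken, those with a −log10 p of at least 10 in DMSO, the 5 loci retained 12 of 12 for H3K27ac (87.6% in the whole list) and 10 of 11 for SMARCA4 (85.2%). The counts were 8 of 14 for MITF (61.7%), 24 of 32 for TFAP2A (71.5%) and 12 of 18 for SOX10 (33.0%). At the TFAP2A locus, SMARCA4 (35 of 44, 79.5%, 65.5 to 88.8) and TFAP2A (26 of 33, 78.8%, 62.2 to 89.3) were also retained at shares above those of the same deciles, 56.7% and 56.2%. On H3K27ac peaks SMARCA4 kept 31 of 36 (86.1%, 71.3 to 93.9), and acetylated list peaks of the same deciles 73.4%. TFAP2A kept 19 of 24 (79.2%, 59.5 to 90.8) against 64.4%, and both list values lie inside the intervals. Off H3K27ac peaks SMARCA4 kept 4 of 8 (50%, 21.5 to 78.5) against 24.8%, inside the interval. TFAP2A there kept 7 of 9 (77.8%, 45.3 to 93.7) against 44.9%, just below its interval. Against other genes the SMARCA4 share at TFAP2A was above that of 88.4%, while the TFAP2A share was above that of 69.7% and below the upper quartile of 81.2%. For MITF, 7 of 18 peaks were retained (38.9%, 20.3 to 61.4), against 40.9%, which lies inside the interval.

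These shares depend on the overlap rule. When retention asked for summits within 200 bp, 10 of 33 SOX10 peaks counted (30.3%, 17.4 to 47.3), against 18.7% in the same deciles, which lies inside the interval. SMARCA4 then gave 43.2% (29.7 to 57.8) against 39.2%, and TFAP2A 54.5% (38.0 to 70.2) against 51.3%. With 50% of the DMSO peak covered, SOX10 gave 39.4% (24.7 to 56.3) against 13.4%. SMARCA4 gave 70.5% (55.8 to 81.8) against 48.7% and TFAP2A 75.8% (59.0 to 87.2) against 50.3%, all above the list. With both lists cut at a −log10 p of 10, SOX10 gave 46.7% (24.8 to 69.9) against 13.4%. SMARCA4 gave 75% (40.9 to 92.9) against 53.7%, inside its interval.

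**Figure D2:**
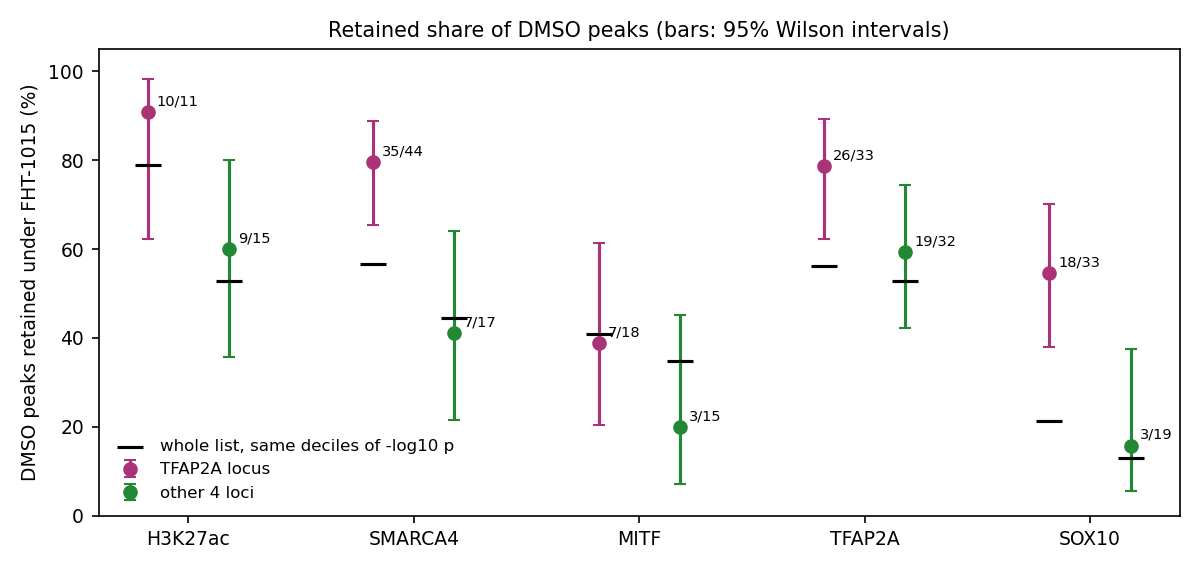
Share of DMSO peaks retained under FHT-1015 (y axis, %) at the TFAP2A locus and at the other 4 AP-2 loci, with 95% Wilson intervals as bars and the whole list at the same deciles of −log10 p as black dashes. At TFAP2A the dashes for SMARCA4, TFAP2A and SOX10 lie below the intervals, and at the other 4 loci every dash lies inside its interval.

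Around TFAP2A the direction of change differed from site to site and between antibodies at 1 site. The −log10 p of a peak and its fold over background are the authors' own values. From both, the number of reads piled up at each summit with a −log10 p of at most 290 was recovered as a whole number. Pairs of such peaks with summits within 200 bp were compared at equal library depth. The depth of FHT-1015 over DMSO ranged from 0.85 (MITF) to 1.15 (SOX10), with TFAP2A at 0.96; it was taken from the lowest background level in each list, divided by fragment length. The SOX10 FHT-1015 reads came out whole only at a scale of 0.89, and all SOX10 ratios rest on that scale and depth. Intervals of these ratios are exact and cover the counting of reads only, and pairs exist only where a peak was called in both conditions.

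**Figure D3:**
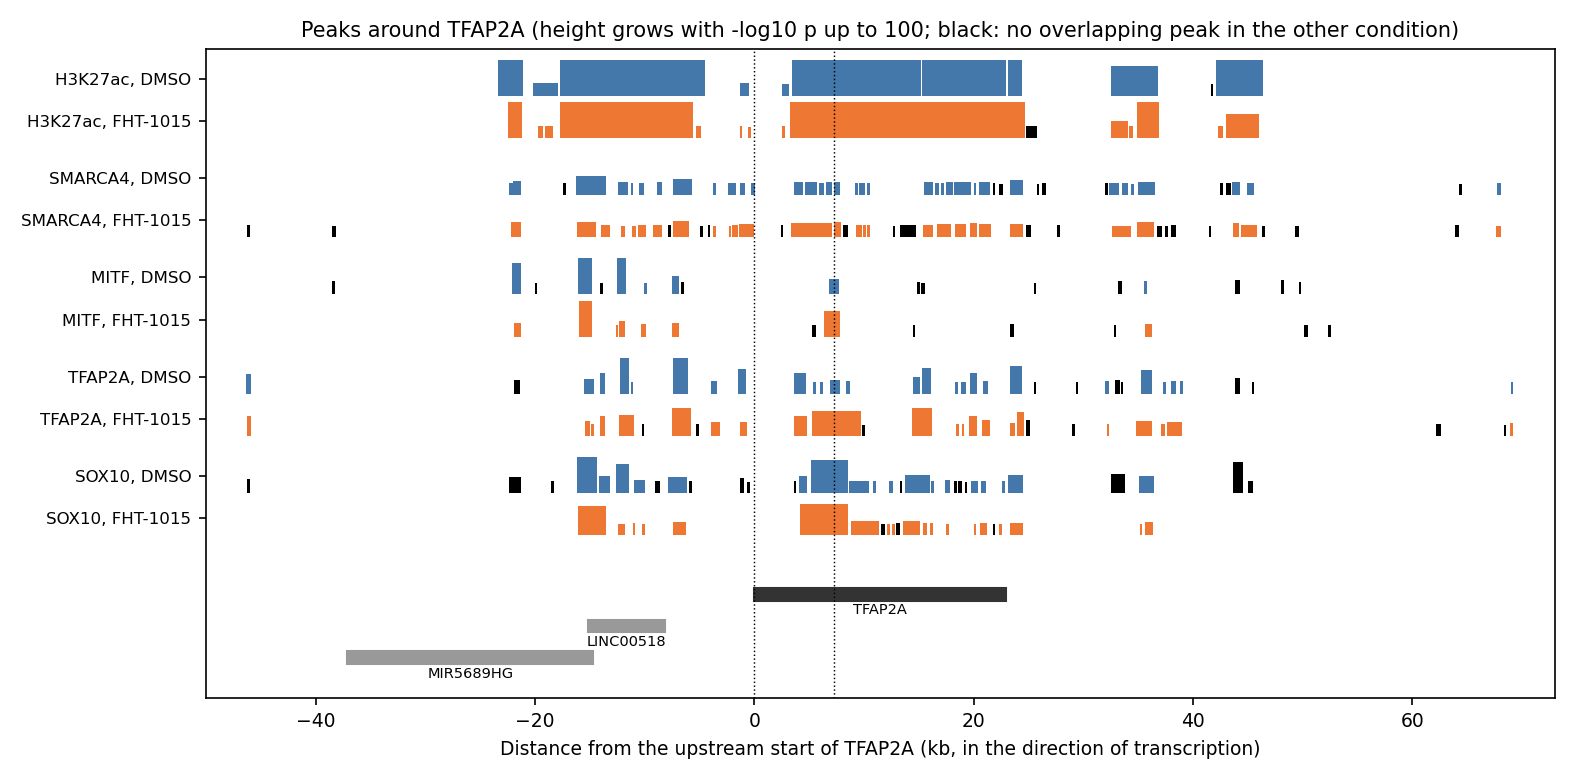
Peaks around TFAP2A by distance from its upstream start (x axis, kb, positive into the gene; dotted lines mark the 2 starts), 1 row for each antibody and condition, with gene extents below. Box height grows with −log10 p up to 100, and black boxes have no overlapping peak in the other condition. The strongest MITF peaks of DMSO lie upstream of the gene, and the SOX10 peaks near 44.1 and 33.3 kb are black.

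At the internal start MITF and TFAP2A signal was higher in FHT-1015 than in DMSO. MITF had 41 reads at the summit in DMSO (−log10 p 18.8) and 77 in FHT-1015 (60.8), a ratio of 2.20 at equal depth (1.49 to 3.29). TFAP2A had 32 reads (12.7) and 88 reads (56.4), a ratio of 2.87 (1.89 to 4.44), the highest of its 18 pairs at this locus. SMARCA4, whose DMSO peak ended just short of the start, had 29 and 44 reads, a ratio of 1.65 (1.01 to 2.74). SOX10 had 118 and 122 reads (87.9 and 81.2), a ratio of 0.90 (0.70 to 1.17) that includes no change and lies above 1 before the depth correction. The FHT-1015 TFAP2A peak, chr6:10409959-10414428, joined 4 separate DMSO peaks. The H3K27ac peaks over the start had a −log10 p of 280 in DMSO and 358 in FHT-1015, at summits away from it. The DMSO summit lay 2.48 kb upstream of the internal start and the FHT-1015 summit 2.39 kb downstream. These values therefore do not measure a change of acetylation at the start. This start lies within the antisense gene TFAP2A-AS1, and peaks carry no strand. At the upstream start the DMSO SMARCA4 peak had a −log10 p of 4.28, and a longer FHT-1015 peak that began just upstream of it had 8.85. The TFAP2A peak 1.13 kb before that start, chr6:10420380-10421115, went from 65 reads to 23, with summits 251 bp apart.

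About 15.3 kb upstream of the gene, where the long noncoding RNA genes MIR5689HG and LINC00518 meet, lay the strongest MITF, SOX10 and SMARCA4 peaks of the 5 loci in DMSO. MITF at chr6:10434492-10435781 had 238 reads in DMSO and 179 in FHT-1015, a ratio of 0.88 (0.72 to 1.07). SOX10 at chr6:10433974-10435875 had 212 and 143 reads (168.5 and 74.9), a ratio of 0.59 (0.47 to 0.73). SMARCA4 at chr6:10433181-10435885 had 75 and 65 reads, a ratio of 0.94 (0.67 to 1.33), and TFAP2A there had 56 and 57 reads, a ratio of 1.06 (0.72 to 1.56). Of these antibodies, SOX10 was the one whose interval excluded equal signal.

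The next strong site, 12.1 kb upstream and within LINC00518, behaved differently. MITF at chr6:10431383-10432184 went from 224 reads to 53 (197.6 to 19.5), a ratio of 0.28 (0.20 to 0.38). SOX10 at chr6:10431081-10432246 went from 131 reads to 34, a ratio of 0.23 (0.15 to 0.33), yet was retained by the overlap rule with a −log10 p of 2.84. TFAP2A at chr6:10431097-10431890, its strongest peak at the 5 loci in DMSO, went from 175 reads to 81, a ratio of 0.48 (0.37 to 0.63). The MITF and SOX10 intervals of this site and of the site at 15.3 kb do not overlap. Both sites lay in 1 H3K27ac peak, of 13.2 kb in DMSO, whose −log10 p was 378 in DMSO and 399 in FHT-1015. Those values belong to a summit 14.7 kb upstream in both conditions, nearer the site at 15.3 kb. They give no measure of acetylation at the site 12.1 kb upstream. Further out, 21.8 kb upstream, MITF had 127 and 39 reads (0.36, 0.24 to 0.52), while the TFAP2A and SOX10 peaks there were lost. SMARCA4 at that site had 57 and 48 reads, a ratio of 0.92 (0.61 to 1.37), and H3K27ac 222 and 163 reads, a ratio of 0.70 (0.57 to 0.86).

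Beyond the 3′ end of the gene, 44.1 kb from the upstream start, stood the strongest lost peaks of MITF, TFAP2A and SOX10 at this locus, all at 1 site. SOX10 at chr6:10375119-10375998 had 132 reads in DMSO (−log10 p 80.7), TFAP2A at chr6:10375376-10375801 had 56 reads (21) and MITF at chr6:10375385-10375866 had 43 reads (16.3), and none had a peak in FHT-1015. SMARCA4 was retained there with 38 and 39 reads, a ratio of 1.12 (0.70 to 1.80). The H3K27ac peak over the site was retained with 122 and 110 reads at summits 426 bp apart, while its −log10 p went from 103 to 53.8 and its fold from 15.2 to 6.58. A further SOX10 peak, 33.3 kb from the upstream start (chr6:10385905-10387126), was lost with 65 reads in DMSO, as were the MITF peak and both TFAP2A peaks whose summits lay on it, although a separate weak MITF peak (3.25) was called beside them in FHT-1015. Another TFAP2A peak, chr6:10387299-10387662 just outside the SOX10 peak, was retained with 17 and 12 reads.

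Over all pairs at TFAP2A, the median ratios of SOX10 and SMARCA4 stood near those of the whole lists. The 10 SOX10 pairs had a median of 0.62, against 0.59 over 15848 pairs of the list, and 6 intervals lay below 1 (51.2% of list pairs) and none above (0.164%). Without the depth correction the SOX10 median was 0.71 and 8 of the 10 ratios lay below 1. The 17 SMARCA4 pairs had a median of 1.07 against 1.09, with 1 interval above 1 (10.4%) and none below (4.74%). List pairs of the same deciles had medians of 0.57 for SOX10 and 1.03 for SMARCA4. TFAP2A had a median of 0.99 over 18 pairs against 0.92, or 0.82 for list pairs of the same deciles. Of its intervals 2 lay above 1 (5.35%) and 2 below (23.2%, or 29.1% at the same deciles). The 4 H3K27ac pairs had a median of 0.76 against 1.16, or 1.13 at the same deciles. Of these, 1 interval lay above 1 (30.5%) and 1 below (13.7%). Peaks with a −log10 p above 290 had no recovered reads, at this locus and in the list. The strongest H3K27ac peak of the locus, with a fold of 34.7 in DMSO and 35.6 in FHT-1015 at the same summit, was thus left out. The H3K27ac median rests on the few pairs that remained, and weak ones with 18 and 14 or 22 and 18 reads were among them. MITF had a median of 0.57 over 5 pairs against 0.83, or 0.54 for list pairs of the same deciles, with 3 intervals below (27.8%) and 1 above (3.11%).

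**Figure D4:**
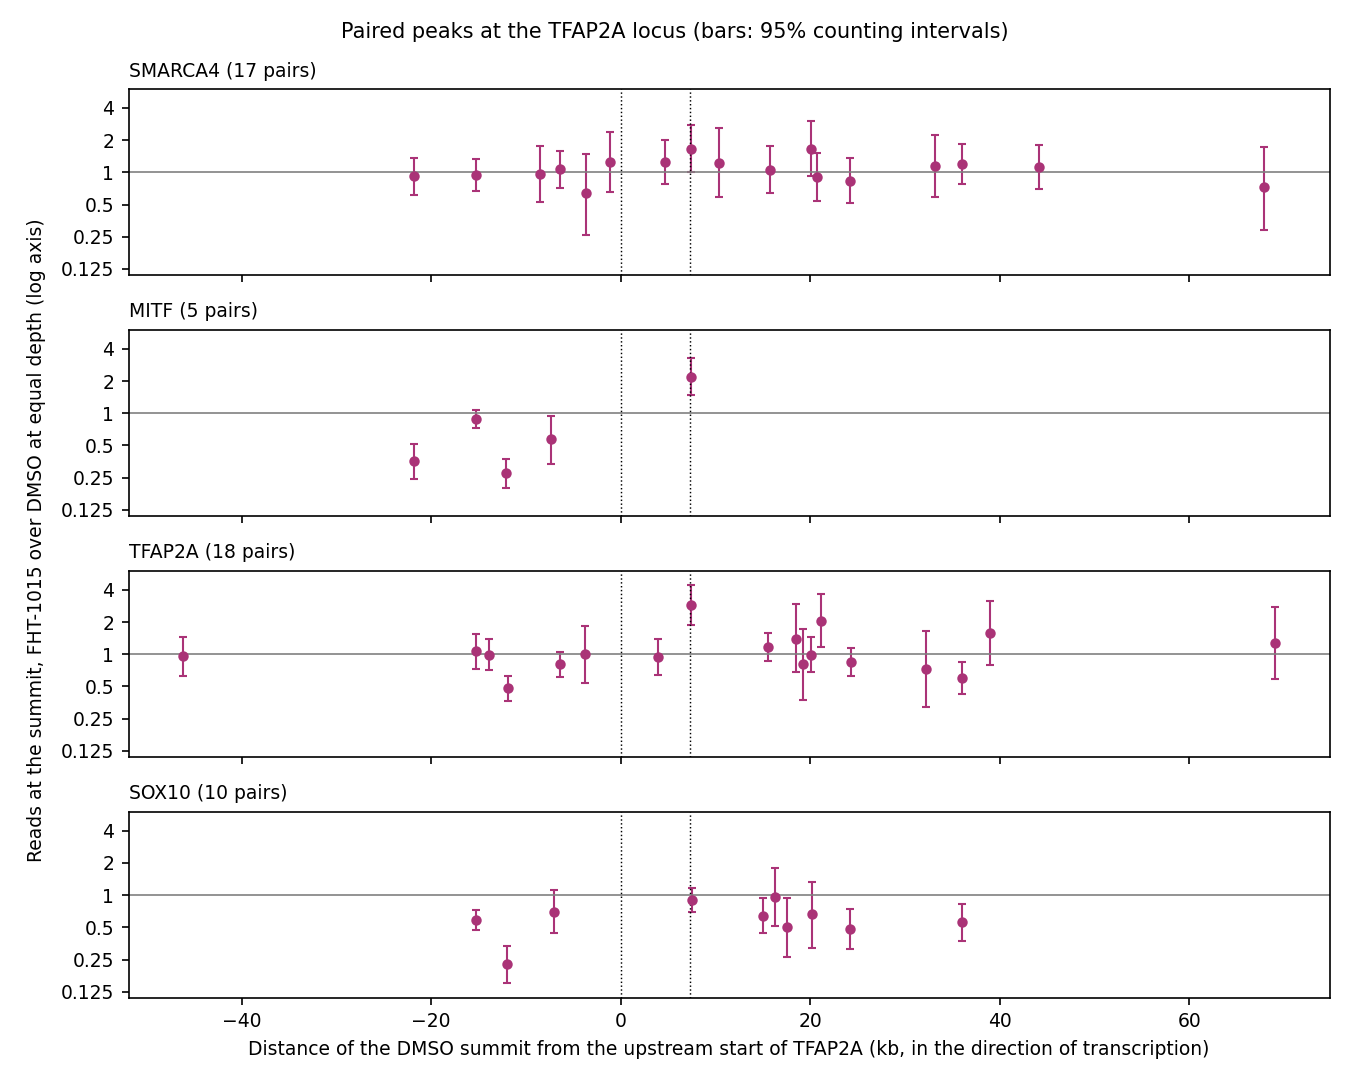
Ratio of reads at paired summits, FHT-1015 over DMSO at equal depth (y axis, log scale), against distance from the upstream start of TFAP2A (x axis, kb), with 95% counting intervals as bars and dotted lines at both starts. Points at the internal start lie above 1 for SMARCA4, MITF and TFAP2A, and all 10 SOX10 points lie below 1 at this depth correction, 4 of them with an interval that reaches 1.

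Peaks seen only in FHT-1015 at TFAP2A made up 1 of 15 H3K27ac peaks (19.8% of that list had no DMSO peak), 18 of 46 SMARCA4 peaks (45.4%), 6 of 14 MITF peaks (64.8%), 7 of 29 TFAP2A peaks (34.4%) and 3 of 22 SOX10 peaks (38.5%). The strongest was a TFAP2A peak at chr6:10394506-10394888, 2.01 kb beyond the 3′ end of the gene, with 35 reads and a −log10 p of 19.2. The strongest of the other antibodies had a −log10 p of 4.26 (H3K27ac), 6.77 (SMARCA4), 6.22 (MITF) and 7.54 (SOX10).

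Some pairs of antibodies shared sites at TFAP2A more often than in the whole lists, and others did not. In DMSO 24 of 33 TFAP2A peaks overlapped a SOX10 peak (72.7%, 55.8 to 84.9; list 43.3%), and in FHT-1015 15 of 29 did (51.7%, 34.4 to 68.6; list 13.7%). Over the 5 loci the counts were 36 of 65 (55.4%) and 18 of 54 (33.3%). A SMARCA4 peak overlapped 24 of the 33 TFAP2A peaks at TFAP2A in DMSO (list 38.1%) and 23 of 29 in FHT-1015 (list 30.7%). Other shares at TFAP2A in DMSO lay below the list. A MITF peak overlapped 11 of 33 SOX10 peaks (33.3%, 19.8 to 50.4, list 45.0%). It overlapped 13 of 44 SMARCA4 peaks (29.5%, 18.2 to 44.2, list 40.6%). A TFAP2A peak overlapped 23 of 44 SMARCA4 peaks (52.3%, 37.9 to 66.2, list 56.0%). The list values of these lower shares lie inside the intervals. All 22 SOX10 peaks left at TFAP2A in FHT-1015 lay on H3K27ac peaks, where 55.5% of the list did. Merging the overlapping peaks of the 4 proteins in both conditions gave 53 sites at TFAP2A. At least 3 proteins were present at 13 of them in DMSO (24.5%) and at 10 in FHT-1015 (18.9%), where 15.1% and 5.83% of all 353334 sites of the series had as many. All 13 and all 10 were acetylated, as were 68.3% and 88.0% of such sites in the series. Over the 130 sites of the 5 loci the counts were 19 and 13, or 14.6% and 10.0%.

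TFAP2E differed in where its peaks lay. None of its 14 H3K27ac peaks in DMSO or 9 in FHT-1015 touched the gene body. In DMSO 13 lay over the next gene, PSMB2, which encodes a proteasome subunit, and 1 spanned the ends of KIAA0319L and NCDN. At the start of TFAP2E itself a TFAP2A peak had 9 reads in DMSO (chr1:35573415-35573874, −log10 p 4.98) and 17 in FHT-1015 (chr1:35573311-35573861, 12.7), a ratio of 1.97 (0.83 to 5.01) that includes no change. A SMARCA4 peak of 13 reads appeared there only in FHT-1015 (chr1:35573410-35573947, −log10 p 8.19), the strongest SMARCA4 peak of the window without a DMSO peak.

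**Figure D5:**
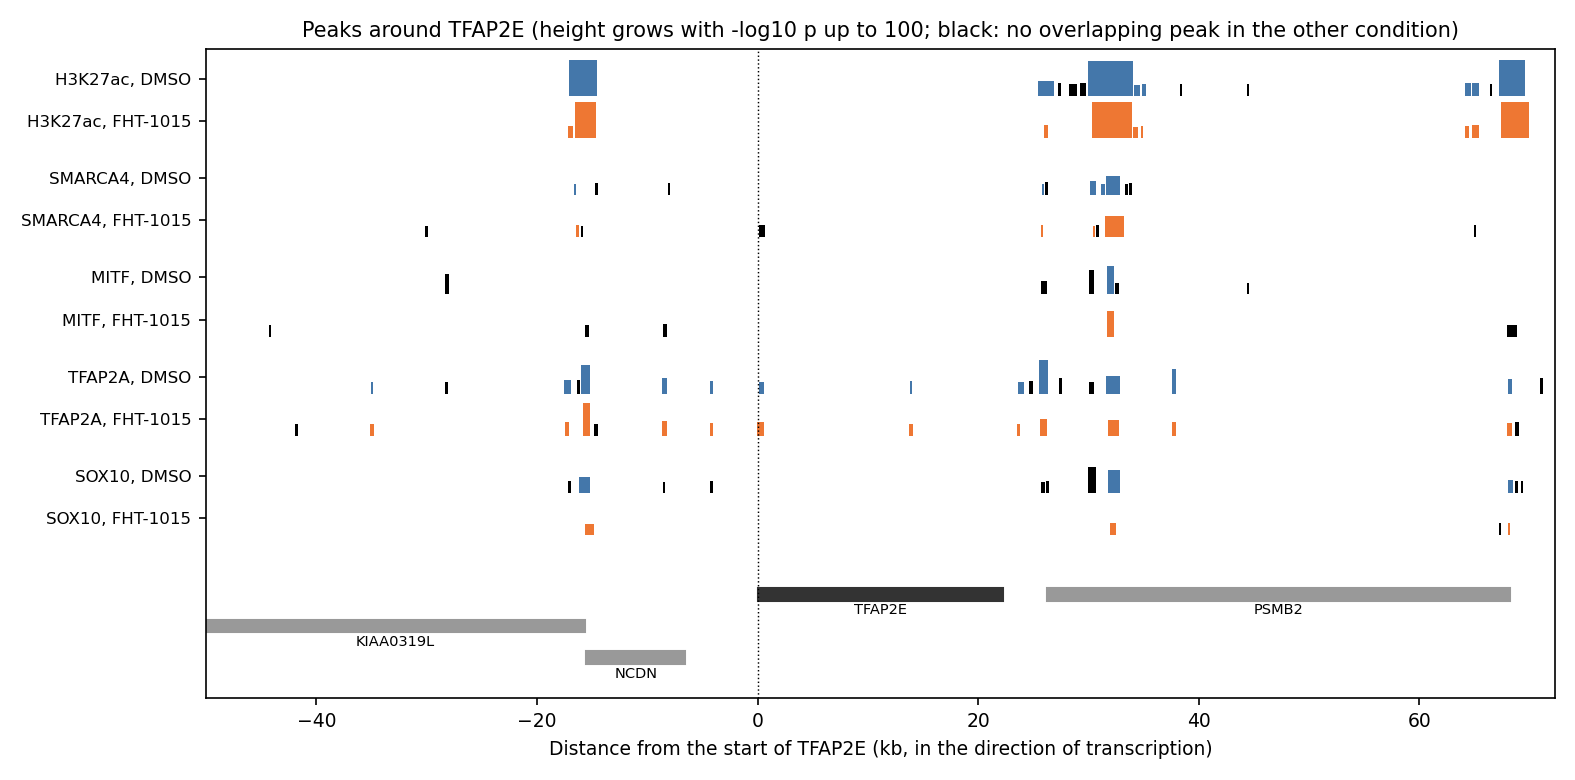
Peaks around TFAP2E by distance from its start (x axis, kb, positive into the gene), drawn as for TFAP2A, with TFAP2E and its neighbours below. The H3K27ac boxes lie over PSMB2 and at the KIAA0319L and NCDN boundary, and none lies over TFAP2E.

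Within PSMB2, 30.3 kb from the start of TFAP2E, the strongest SOX10 peak of the window was lost (chr1:35603308-35603969, 75 reads, −log10 p 60.9) together with a MITF peak (chr1:35603337-35603837, 61 reads, 53.6). At the next site inside PSMB2, MITF at chr1:35605039-35605602 had 81 reads and 75 (1.08). SOX10 at that second site (chr1:35605055-35606180) went from 73 reads to 25, a ratio of 0.30 (0.18 to 0.48). SMARCA4 there had 58 and 68 reads, a ratio of 1.28 (0.89 to 1.85). The strongest TFAP2A peak of the window in DMSO, chr1:35598855-35599654 near the PSMB2 boundary, went from 84 reads to 33 (0.41), and the peak at the NCDN and KIAA0319L boundary from 92 to 104 (1.18).

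At TFAP2C all 4 proteins and H3K27ac met at 1 site in DMSO, the lower boundary of the gene. SMARCA4 there went from 17 reads (chr20:56629277-56630322, −log10 p 7.96) to 48 (chr20:56628758-56630783, 41.9), a ratio of 3.08 (1.74 to 5.71) with summits 236 bp apart. It was the strongest SMARCA4 peak of the 5 loci in FHT-1015. TFAP2A at chr20:56629703-56630818 went the other way, from 86 reads to 52, a ratio of 0.63 (0.44 to 0.90). The 3 MITF and 3 SOX10 peaks within 1 kb of the boundary, with 8 to 16 reads each, had no FHT-1015 peak. H3K27ac had 20 and 18 reads. A TFAP2A peak 33.1 kb above that boundary (chr20:56662283-56662561) went from 32 reads to 12, a ratio of 0.39 (0.18 to 0.78).

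TFAP2D and TFAP2B had no H3K27ac peak in DMSO and no SOX10 peak in FHT-1015. Of all protein-coding genes, 13.5% and 18.9% had none, in the same order. List peaks of the deciles of their few DMSO SOX10 peaks retained 7.15% (TFAP2D) and 6.07% (TFAP2B). The strongest site of TFAP2D and TFAP2B lay between these genes, 2.89 kb before the start of TFAP2B. MITF there went from 41 reads (chr6:50815661-50816242, −log10 p 24.4) to 63 (chr6:50815536-50816194, 48.0), a ratio of 1.80 (1.19 to 2.73). The SMARCA4 peak (3.54) and the SOX10 peak (3.99) at that site were lost, and a weak H3K27ac peak (3.16) was called in FHT-1015 only. At TFAP2D the strongest TFAP2A peak, chr6:50704098-50704427 at 9.26 kb before its start, had 21 reads (−log10 p 17.1) and was lost. A SMARCA4 peak just inside the start of TFAP2D was called in FHT-1015 only, with 9 reads (4.72). No peak of any antibody covered the start of TFAP2B in either condition.

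Genes that work with AP-2 factors were described by the same windows: KCTD1 and KCTD15, which repress AP-2 activity, and CITED1, CITED2 and CITED4, its coactivators. Over these 5 genes H3K27ac went from 27 to 20 peaks, a ratio of 0.74 where the whole list had 0.71, with fewer in 4 genes and more in CITED1. SMARCA4 went from 48 to 57 peaks, a ratio of 1.19 against 0.88 for the list, with more in 4 genes and fewer in CITED2. MITF went from 32 to 27 peaks, a ratio of 0.84 against 1.04 for the list, with fewer in 4 genes and more in CITED2. SOX10 went from 42 to 26 peaks, a ratio of 0.62 against 0.32, with 14 retained (33.3%, against 18.3% of the list), fewer in 4 genes and equal in CITED1, at 9 and 9. TFAP2A peaks numbered 75 and 72, a ratio of 0.96 against 0.83, with more in 3 genes and fewer in KCTD1 and CITED4. Of these 51 were retained, a pooled 68.0% against 54.9% of the list. The median gene with at least 10 peaks retained 68.4%, which is not a pooled share. CITED4 lost all 5 SOX10 and all 3 H3K27ac peaks, and KCTD15 kept 1 of 4 H3K27ac peaks.

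Likeness was taken as the Euclidean distance over 10 values, the log2 of peaks per 100 kb plus 1 for each antibody and condition. The genes nearest to TFAP2A outside its window were PTTG1 (1.26), PAX3 (1.33) and IRF2BP2 (1.39), against a median distance of 6.98 over all genes. SOX10 peaks numbered 23 and 22 in the PTTG1 window and 23 and 19 at IRF2BP2, while PAX3, which encodes another neural crest factor, went from 58 to 27. Nearest to TFAP2E were MAP7D1, ACP2 and KANK3, to TFAP2C MED7, SLC1A7 and MANSC4, to TFAP2D SGIP1, ZNF474 and AGTR1, and to TFAP2B SLC4A10, HNRNPA1L3 and SMIM36. For TFAP2B, TFAP2C and TFAP2D these distances rest on few peaks and are descriptions only.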

How the data were processed

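Chromatin immunoprecipitation libraries of 5 antibodies in 92-1 cells, 1 per condition, were available as 14 peak lists, 10 narrow and 4 broad. Per the submitters' processing notes, the authors used BWA, SAMtools, Picard and MACS2 with the hg38 build; versions, thresholds, duplicate handling and the control used are not given in the sources used here. The deposited lists give for each peak a fold enrichment over background (a ratio), a −log10 p-value and a −log10 q-value, all the authors' own, and were called separately for each library.

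Gene extents came from RefSeq on GRCh38, of the same coordinates as hg38. Windows, overlaps (at least 1 bp), Wilson intervals (95%) and peak densities were computed from the narrow lists with Python 3.11.15, pandas 2.3.3, NumPy 2.4.6 and SciPy 1.17.1, and checked on simulated data. The broad lists of H3K27ac and SMARCA4 served as an alternative. Summit reads were solved from the deposited fold and −log10 p-value, for peaks with a −log10 p of at most 290. They came out whole within 0.002 for 100% of 2000 such peaks checked in each list. Stronger peaks were not part of that check and have no read values. Of 26368 H3K27ac pairs in the whole lists, 25566 had reads. The SOX10 FHT-1015 list needed a scale of 0.89. Summit reads ran at a median of 8 to 27 per list, and the total number of reads of a library is not given in the sources used here. Relative depth was estimated as the lowest background level recovered in a list, over its scale and the length of its shortest peak, taken as the fragment length. SOX10 reads and ratios rest on that scale. A summit is the maximum of each library, so both members of a pair are selected for height. Peaks were not matched for depth, and lists of unequal depth can differ in length for that reason.

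The members and lists were chosen with earlier results of these data known. Peaks to be named were, for each member and antibody, the strongest in DMSO, the strongest lost and the strongest found in FHT-1015 only; neighbours, partner genes and the 3 genes most like each member were named by fixed lists or distance. Other single peaks, including those at the starts and at 12.1 and 21.8 kb from TFAP2A, were chosen after their values were seen. With 1 library per group no test between conditions was made. A further gene of the partner list is not reported here.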

Additional observations from a re-analysis of the deposited data

How the results depend on the processing

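The direction of the peak number ratio (FHT-1015 over DMSO, all 5 loci) turned for MITF, from 0.94 to 1.17 over gene bodies without flanks and to 1.13 without the TFAP2A locus; it was 0.50 when both lists were cut at a −log10 p of 10. For H3K27ac the ratio of 1.00 (26 and 26 peaks) has no direction, and its alternatives lay between 0.73 without TFAP2A and 1.06 with broad lists. For SOX10 the ratio of 0.50 was 0.33 at a q-value under 0.05 and 0.21 without TFAP2A. With summits within 200 bp the retained share moved to 53.8% for H3K27ac, 39.3% for SMARCA4, 53.8% for TFAP2A and 23.1% for SOX10, and SOX10 gave 26.9% when 50% of the DMSO peak had to be covered. Over gene bodies alone it was 100% for H3K27ac (4 of 4 peaks), 85.7% (SMARCA4), 16.7% (MITF), 94.1% (TFAP2A) and 57.9% (SOX10). MITF gave 50% with both lists cut at that −log10 p. Without TFAP2A the share was 41.2% for SMARCA4 and 15.8% for SOX10. Cutting the DMSO list alone at 10 gave retained shares of 100% for H3K27ac, 90.9% for SMARCA4, 57.1% for MITF and 66.7% for SOX10. The share of TFAP2A peaks on SOX10 peaks was 76.5% over gene bodies and 37.5% without TFAP2A. The alternatives without TFAP2A and with strong DMSO peaks alone, and the read ratios without depth correction, were chosen after seeing the data. In all, 25 of 42 alternative retained shares, 22 of 27 ratios and 3 of 5 overlap shares stayed near the values given. Of the 150 alternative peak numbers of single loci, however, 101 moved and 49 did not. The moves were 44 with the cut at a −log10 p of 10, 40 with gene bodies alone and 17 with 100 kb flanks. These settings take out or add peaks by design. Why the shares and ratios moved was not tested. No paired analysis was possible because each group had 1 library and no replicate number. Leaving out replicates was not possible for the same reason. Depth limits what a missing peak shows: it was not called in that library, which is not absence of binding.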
